A study of Xenopus laevis with 12 samples.

Results

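The Geminin-injected ectoderm explants of Xenopus laevis, profiled at late gastrula (stage 12) and at early gastrula (stage 10.5), are described here on their own, to show which genes were higher or lower at the later stage while Geminin was raised. They were chosen by the stage and manipulation labels and make up 6 of the 12 arrays of the series, 3 per stage. The injected stage 12 and stage 10.5 groups carry 300 pg of a Geminin RNA that the labels name xGemininΔcoil, given to both blastomeres in the animal hemisphere. The labels do not say whether this was injected into each blastomere or divided between them. The other 6 arrays are uninjected explants, 3 at stage 12 and 3 at stage 10.5. No control RNA was used in the explants analysed here, so the act of injection and Geminin cannot be told apart where injected and uninjected explants are set side by side. All 4 groups are pools of 80 animal caps from pigmented embryos fertilized in vitro, cut at stage 8 to 9, held in 0.7x MMR (a frog saline) at 25 °C and lysed for total RNA when intact siblings reached the named stage. The design text states that the whole experiment was carried out 3 times for each stage. Experiment numbers are not stated to link the stages, so the stages were compared unpaired. In bulk RNA, fewer cells of a type and less RNA per cell cannot be told apart, and this holds for every change below.

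The animal cap is the prospective ectoderm of the frog embryo. Left alone it makes epidermis under BMP signals, and it makes neural tissue when BMP is blocked. During gastrulation its cells degrade much of the RNA loaded into the egg, lengthen their cell cycle and switch on keratins, transcription factors such as dlx3 and msx1, and then the genes of the specialised skin cells, which secrete mucus, beat cilia or move ions. Geminin holds back DNA replication by binding the licensing factor Cdt1. It also binds chromatin regulators and is known for keeping early embryonic cells from committing to a fate. Which of these properties the injected form, xGemininΔcoil, keeps was not tested here. This frog is tetraploid, and a gene name ending in .L or .S stands for its copy on a long or a short chromosome. Probes for such copies can cross-hybridise.

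Levels are given as quantile-normalised log2(intensity + 16), and a change is the stage 12 mean minus the stage 10.5 mean on that scale, which understates changes of dim genes. The median deposited intensity spanned a range of 1.57 on the log2 scale over the 6 injected arrays. The injected gene itself was read at deposited intensities of 3203, 13754 and 13436 for gmnn.L at stage 12, against 5435, 10464 and 3446 at stage 10.5, so the stages overlapped and all 6 arrays lay above the 116 to 375 of 5 of the 6 uninjected arrays. Its change was 0.05 ± 0.86 (SE, n = 3 arrays each, limma adjusted p = 0.978). The gmnn.S probe set fell by 1.69 ± 0.52 (adjusted p = 0.0427). The tissue label was checked against markers. Of 16 ectoderm and epidermis markers on the array all 16 were tested, 9 rose and 3 fell. The falls were foxi1.L, sox11.S and lhx5.S, and sox11.S and lhx5.S are also counted below as neural plate genes. The summed normalised intensity of the 16 was 16992 to 19156 at stage 12, against 11961 to 15201 at stage 10.5. Mesoderm and muscle markers summed to 137 to 172 at stage 12 and 184 to 263 at stage 10.5, endoderm markers to 273 to 414 and 332 to 480, and organizer markers to 178 to 261 and at most 152. Only 2 of 11 mesoderm, 7 of 17 endoderm and 2 of 10 organizer markers were bright enough to be tested. The organizer sums did not overlap between the stages and 1 organizer marker, gsc.L, rose. None of the few mesoderm and endoderm markers tested passed. Of the mesoderm, endoderm and organizer markers on the array, 5 of 11, 6 of 17 and 5 of 10 stayed under the filter level of 5.26 on all 6 injected arrays, among them wnt8a.L, mixer.L, gata4.L and nog.L. Neural markers summed to 1286 to 2153 at stage 12 and 3818 to 5069 at stage 10.5. Of the 14 on the array 9 were tested, with none higher and 3 lower. The injected stage 12 arrays of experiments 2 and 3 correlated at 0.982 over probe sets, against 0.917 to 0.919 for the other pairs of that group. The library labelled uninjected, stage 12, experiment 3 had a gmnn.L intensity of 4576, against 116 and 278 in the other libraries of its group. Counts, medians and differences between injected and uninjected explants that use it are set beside values without it where these move a call or a count.

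Within the injected explants 1895 of 11618 tested probe sets (16.3%) changed between the stages, by limma's fit of the group means with Benjamini-Hochberg adjustment over all of them and a threshold of 0.05. At stage 12, 909 (7.82%) were higher and 986 (8.49%) lower, and of these 530 (4.56%) and 599 (5.16%) changed at least 2-fold. The 3 arrays of one stage did not overlap the 3 of the other for 1888 of the 1895, as against 35.8% of all probe sets tested (17.7% with stage 12 higher and 18.1% with stage 12 lower). A single gene symbol that names a known gene was available for 558 of the rises and 655 of the falls. The balance of rises and falls followed the scaling. On the deposited scale 128 were higher and 399 lower, and the median over all probe sets was -0.20, while with median centring 1533 were higher and 833 lower and that median was 0.14, against 0.02 in the values given here. Leaving out 1 injected array gave between 939 (without stage 12 experiment 3) and 1643 (without stage 12 experiment 1), with 1160 without stage 12 experiment 2, 1196 without stage 10.5 experiment 3 and 1237 without stage 10.5 experiment 2. With the near-alike stage 12 arrays of experiments 2 and 3 averaged into 1 the count was 783. The fit took all 12 arrays, uninjected ones included, and its estimate of the spread is shared by the 4 groups. It treats injected and uninjected arrays of an experiment as independent. A fit of the 6 injected arrays alone called 1644, and a fit with the experiment as a random block called 1710.

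The largest rises in the injected explants were in keratins of the larval epidermis and in genes of skin secretion. The keratin krt12.4.S had levels of 10.2, 9.24 and 9.60 at stage 12, against 5.68, 4.66 and 5.0 at stage 10.5. All 3 late arrays lay far above all early ones, and it rose by 4.57 ± 0.49 (SE, n = 3 arrays each, limma adjusted p = 0.000309). Its neighbour in gene order, krt12.5.S, had 10.3, 9.68 and 9.74 at stage 12 and 7.01, 5.09 and 5.36 at stage 10.5. It rose by 4.09 ± 0.60, with the early array of experiment 1 standing above the other early arrays. The other copy, krt12.4.L, rose by 3.77 ± 0.50 and krt70.L, a further epidermal keratin, by 3.61 ± 0.57. For krt70.L the levels were 8.65, 9.72 and 9.55 at stage 12, against 6.84, 4.98 and 5.27 at stage 10.5, again without overlap. Members of the gene lists beyond the 4 with the smallest p in each were chosen after their values were seen. Of 12 tested, which are 11 keratins and the keratinocyte protein gene krtcap3.L (0.33, not passed), 7 rose and none fell, with a median of 0.90, and 6 or 7 rose whichever injected array was left out. Beside the 4 above, krt7.L rose by 1.67 with levels of 12.28 to 12.29 at stage 12 and 10.57 to 10.68 at stage 10.5, krt8.1.S by 1.04 and krt70.S by 0.75. Keratins of simple epithelia that did not pass were krt18.1.L (-0.33), krt18.1.S (-0.39), krt19.L (-0.17) and krt19.S (0.16).

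**Figure D1:**
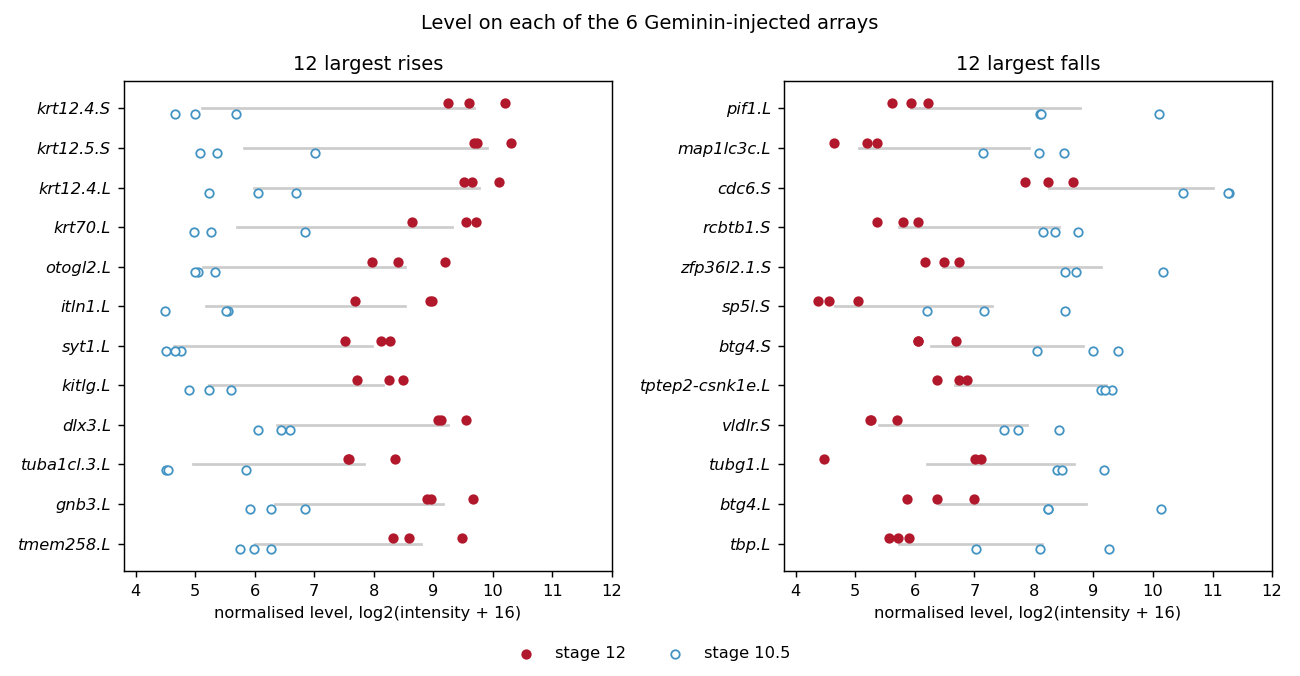
Normalised level, log2(intensity + 16), of the 12 largest rises (left) and 12 largest falls (right) on each injected array, with filled points for stage 12, open points for stage 10.5 and a grey line between the 2 means. The stages do not overlap for any of these genes, which the choice required, and krt12.4.S spans 9.24 to 10.2 at stage 12 against 4.66 to 5.68 at stage 10.5.

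Among the other 8 of the 12 largest rises were itln1.L, a lectin secreted by mucus cells of tadpole skin, and otogl2.L, a mucin-like otogelin. The lectin had 8.94, 7.68 and 8.98 at stage 12 and 4.49, 5.55 and 5.52 at stage 10.5, and it rose by 3.35 ± 0.44 (adjusted p = 0.000639). For otogl2.L the stage 12 levels were 8.40, 7.97 and 9.20 and the stage 10.5 levels 5.05, 5.34 and 5.0. It rose by 3.39 ± 0.32, while other probe sets of this gene gave 0.30 and 0.93 and did not pass. The synaptotagmin gene syt1.L, a calcium sensor of vesicle release, rose by 3.32 ± 0.39, and its levels at stage 10.5 were 4.52 to 4.77, close to the 5th percentile of all probe sets at 4.43. The growth factor gene kitlg.L, which encodes the ligand of the Kit receptor, rose by 2.91 ± 0.29, the G protein subunit gene gnb3.L by 2.82 ± 0.37 and tmem258.L, a part of the enzyme that adds sugars to new proteins, by 2.79 ± 0.33. A further tmem258.L probe set gave 0.59. The alpha-tubulin gene tuba1cl.3.L rose by 2.86 ± 0.66 (adjusted p = 0.0124), and other probe sets of it gave 2.33 and 2.54. Without stage 12 experiment 3 its adjusted p was 0.0587.

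BMP is the signal that directs ectoderm to epidermis, and of 43 tested ligands, receptors and response genes 11 rose and 3 fell in injected explants, with a median of 0.50. The homeobox gene dlx3.L had 9.55, 9.13 and 9.08 at stage 12, against 6.59, 6.06 and 6.45 at stage 10.5. It rose by 2.88 ± 0.43 (adjusted p = 0.0013), and its copy dlx3.S rose by 2.58 ± 0.30, with 9.89, 9.72 and 9.29 against 7.16, 6.84 and 7.17. Both copies thus moved alike and without overlap. The homeobox genes msx1.L and msx1.S rose by 2.38 and 1.58, the zinc-finger factor gata3.S by 2.67, dlx6.S by 1.44 and dlx5.L by 1.1. Early gata3.S lay at 4.25, 4.21 and 4.84, near the dim end. Secreted and membrane regulators rose as well: szl.L (sizzled, an inhibitor of Chordin-cleaving proteases) by 2.23, bambi.L (a decoy receptor) by 1.25 and bmp1.L (a Chordin-cleaving protease) by 1.24. Ligands were split. bmp7.1.L rose by 1.04, while bmp7.2.L fell by 0.64 and bmp2.L fell by 1.43. The receptor bmpr1a.L (-0.33) and the transducers smad1.L (0.01) and smad1.S (0.02) did not pass. Without single arrays 7 to 13 members rose, the fewest without stage 12 experiment 3.

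Genes of the epidermal barrier, of cell junctions and of adhesion gave 9 rises and 1 fall among 40 tested, with a median of 0.31, so 30 did not pass. The sodium pump subunit atp1b2.L rose most, by 2.51 ± 0.33, with 8.48, 9.71 and 9.58 at stage 12 and 6.98, 6.50 and 6.75 at stage 10.5. The epidermal transcription factor grhl1.L rose by 1.55, the cadherin cdh1.S by 1.53, the plakin genes evpl.L and ppl.L by 1.46 and 1.15, the tight-junction gene cgn.L by 1.02 and cldn4.L by 0.77. Both copies of the uroplakin gene upk1b rose, by 1.26 (.L) and 0.73 (.S). The claudin cldn6.2.L fell by 0.44 on a level of 11.67 at stage 12. Junction genes already bright at stage 10.5, such as jup.L (0.30), epcam.L (-0.21) and cldn7.L (-0.03), did not pass.

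Of 11 tested genes of mucus-secreting and small secretory cells 7 rose and none fell, with a median of 0.94, and leaving out single arrays gave 5 to 7. Besides itln1.L these were the secreted disulphide isomerases agr2.S (2.45) and agr2.L (1.07), ag1.S (2.77) and ag1.L (2.61), which are also marks of the cement gland, and the secretory-pathway regulators creb3l2.L (0.94) and xbp1.L (0.81). agr2.S had 7.53, 6.88 and 7.32 at stage 12 and 4.28, 5.0 and 5.09 at stage 10.5. The small cement and hatching gland list holds the same ag1 and agr2 genes, which were its 4 rises among 7 tested.

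Of 33 tested genes of multiciliated cells 5 rose and none fell, with a median of 0.31, and between 1 and 4 rose when any single injected array was left out. The 5 were the radial-spoke gene rsph9.L (0.98 ± 0.22, adjusted p = 0.0118), cfap52.L (1.12) and cfap20.L (0.71), which encode cilia-associated proteins, the dynein light chain dynll1.S (1.14) and the intraflagellar transport gene ift20.L (0.89). On rsph9.L the levels were 7.42, 7.64 and 7.62 at stage 12, against 6.30, 6.64 and 6.81 at stage 10.5. Another probe set of rsph9.L (0.64) and one of dynll1.S (1.53) did not pass. Genes that direct these cells gave values that did not pass: foxn4.S 0.69, ccno.L 0.55 and rfx2.S -0.26. Of 13 ionocyte genes 1 rose and 2 fell, with a median of -0.03 that was 0.17 with median centring. The glutathione transferase mgst1.L rose by 0.69, but 0 ionocyte genes rose when any single injected array was left out. The carbonic anhydrase ca12.L fell by 1.24 ± 0.26 (adjusted p = 0.00756), with 6.69, 6.66 and 6.67 at stage 12 against 7.61, 7.81 and 8.30 at stage 10.5. The fork-head factor foxi1.L, which is needed for ionocytes and is present throughout the early ectoderm, fell by 1.79 ± 0.40, with 5.01, 6.47 and 5.71 at stage 12 and 7.06, 7.49 and 8.01 at stage 10.5. Both fell without overlap between stages.

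**Figure D2:**
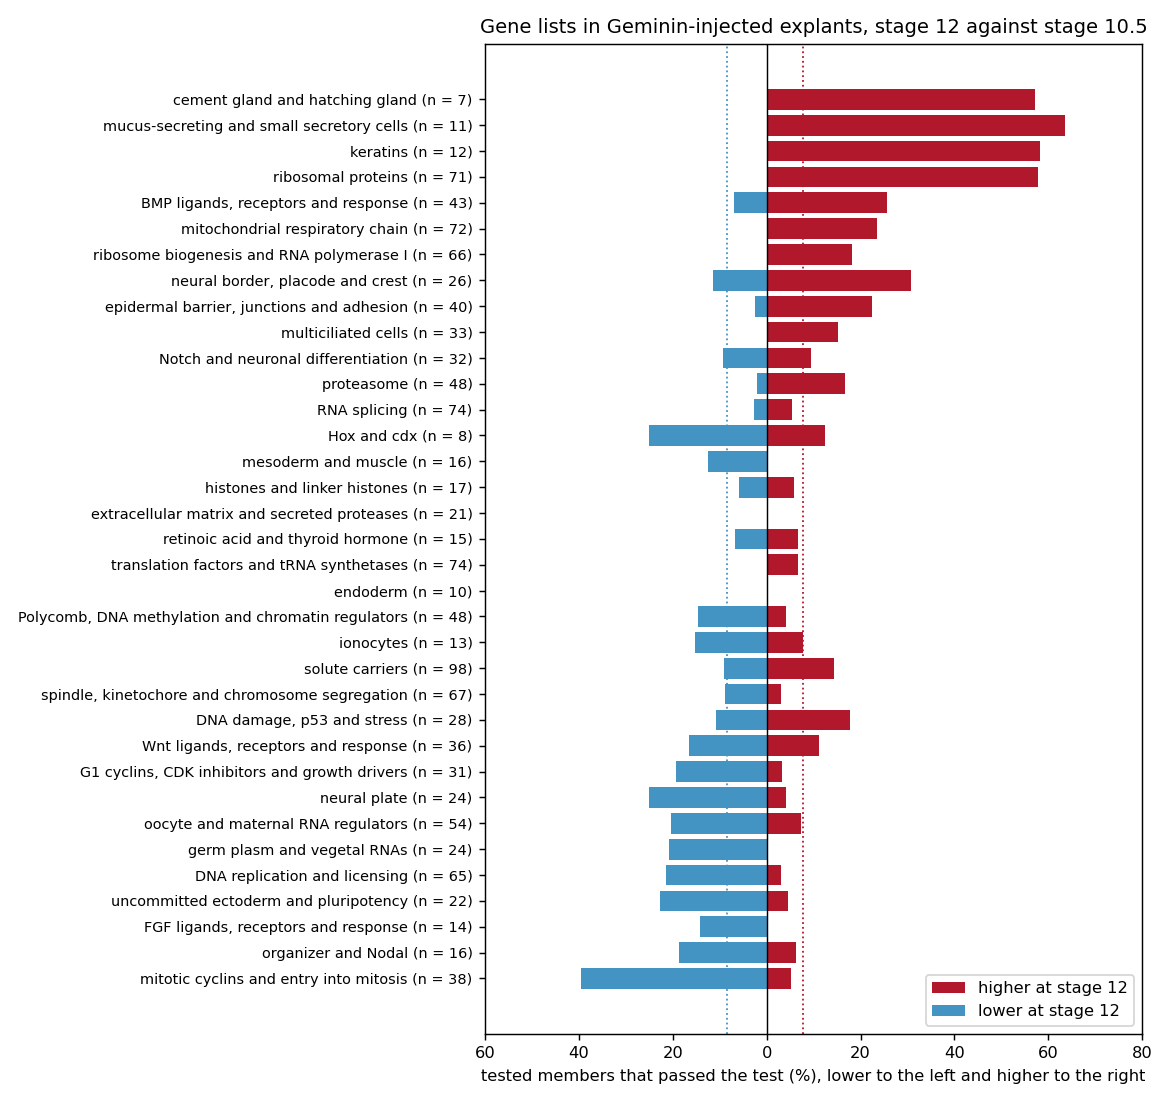
Share of tested members of each of 35 gene lists that passed the test in injected explants, higher at stage 12 to the right and lower to the left, ordered by the median change of the list. The dotted lines give the shares over all probe sets tested, 7.82% higher and 8.49% lower, and keratins, secretory cells and ribosomal proteins reach furthest to the right while mitotic genes reach furthest to the left.

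Many genes for making protein and for respiration rose, most by less than the keratins. Of 71 tested ribosomal protein genes 41 rose and none fell, with a median of 0.71 (0.86 on the deposited scale and 1.2 with median centring). Under the deposited scale 9 of these passed, and between 27 and 40 passed without single injected arrays, the lowest without stage 12 experiment 3. The large-subunit gene rpl35a.S had 11.40, 11.32 and 11.50 at stage 12, against 9.92, 9.62 and 9.65 at stage 10.5, and rose by 1.68 ± 0.14 (adjusted p = 0.000108). The small-subunit gene rps21.S rose by 1.59 ± 0.14 with 10.85, 10.64 and 10.72 against 9.20, 9.14 and 9.08, and rpl39.L and rpl29.L rose by 1.55 and 1.73. In these genes the late arrays stood together, well clear of the early ones. Others were level, such as rps18.L (0.04), rps29.S (0.20) and rps12.S (-0.25), the last in contrast to its copy rps12.L, which rose by 0.99.

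Of 66 genes of ribosome biogenesis and RNA polymerase I 12 rose and none fell, with a median of 0.39. They included the pre-ribosomal RNA processing factors utp15.S (1.60), utp18.L (1.24), utp15.L (1.22), wdr43.S (1.12) and pwp2.S (0.87) and the polymerase I subunit polr1a.L (0.88). This count was 3 without stage 10.5 experiment 2, 5 without stage 12 experiment 2 or 3, 7 without stage 10.5 experiment 3, 8 without stage 12 experiment 1 and 10 without stage 10.5 experiment 1, and 0 passed on the deposited scale. Of 72 genes of the mitochondrial respiratory chain 17 rose and none fell, with a median of 0.41. The complex III gene uqcrq.S rose by 2.2 ± 0.26, with 9.94, 9.67 and 9.65 at stage 12 and 7.91, 6.94 and 7.82 at stage 10.5. ndufa8.L, of complex I, rose by 1.29 and cox7c.S, of complex IV, by 1.02. Without single arrays 8 to 15 of these rose, and on the deposited scale 1 rose and 1 fell. Of 48 proteasome genes 8 rose and 1 fell, with a median of 0.21 that was -0.01 on the deposited scale. The assembly chaperones psmg1.L (1.86) and psmg3.L (1.31) were among the rises. The core subunit psma6.S rose by 1.71 while its copy psma6.L fell by 1.01, the 1 gene of 66 with both copies called whose copies went opposite ways. Translation factors (5 higher of 74), splicing factors (4 higher and 2 lower of 74) and histones (1 higher and 1 lower of 17) had low shares of calls. In the values given here these were no higher in either direction than those over all probe sets. With median centring 14, 28 and 5 of them were higher, shares above that of 1533 of 11618 over all probe sets. The histone pair was the linker histone h1-10.S, which rose by 1.75, and h2ac17.L, which fell by 0.93.

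The 12 largest falls within the injected explants included the helicase gene pif1.L, the licensing factor cdc6.S, both copies of btg4 and the RNA-decay factor zfp36l2.1.S. The helicase gene pif1.L had 5.93, 6.22 and 5.62 at stage 12, against 8.11, 8.12 and 10.1 at stage 10.5. It fell by 2.85 ± 0.47 (adjusted p = 0.00202), and its early array of experiment 3 was well above the other early arrays. The autophagy gene map1lc3c.L fell by 2.84 ± 0.42, with 5.37, 5.19 and 4.65 at stage 12 and 8.08, 7.15 and 8.5 at stage 10.5, and thus came down to the dim end. The replication licensing factor cdc6.S, which loads the MCM helicase together with Cdt1, had 8.24, 8.66 and 7.85 at stage 12, against 10.5, 11.28 and 11.26 at stage 10.5. It fell by 2.76 ± 0.35 (adjusted p = 0.000507), without overlap, and its copy cdc6.L fell by 1.48. Further large falls were in rcbtb1.S (-2.68), in the casein kinase gene tptep2-csnk1e.L (-2.55, with -1.88 on another probe set that did not pass), in vldlr.S (-2.48), a lipoprotein receptor that takes up yolk precursor in oocytes, and in tubg1.L (-2.47), the gamma-tubulin that nucleates microtubules. The basal transcription factor tbp.L fell by 2.40 ± 0.54, with 5.91, 5.72 and 5.56 at stage 12 and 7.02, 8.10 and 9.27 at stage 10.5. For tubg1.L the stage 12 array of experiment 1 was at 4.48 and the others at 7.12 and 7.01, and its fall was 1.61 without that array (adjusted p = 0.0709). The adjusted p of tubg1.L was also over 0.05 without stage 10.5 experiment 1 (0.0543), 2 (0.0599) or 3 (0.0908).

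Among 54 tested regulators of oocyte and maternal RNA 11 fell and 4 rose, with a median of -0.26. Both copies of btg4, an adaptor that recruits the deadenylase to maternal RNA in the mouse, fell, with changes of -2.55 ± 0.43 for btg4.S (adjusted p = 0.00227) and -2.46 ± 0.59 for btg4.L (adjusted p = 0.0155). btg4.S had 6.69, 6.05 and 6.06 at stage 12, against 9.41, 8.05 and 9.00 at stage 10.5. The RNA-decay factor zfp36l2.1.S fell by 2.66 ± 0.45, with 6.74, 6.49 and 6.18 against 8.52, 8.71 and 10.17, and zfp36l2.2.L by 1.88. The translational repressor patl2.L fell by 1.83, the kinase mos.L of oocyte maturation by 1.55, zar2.S by 1.26 and the poly(A) ribonuclease parn.L by 1.14. Egg RNAs that did not pass were zp2.L (-0.27), zar1.S (-0.16) and npm2.L (-0.34), while zfp36.L, of the same family as zfp36l2, rose by 1.94 and ybx2.S by 0.84. Between 5 and 9 fell when single injected arrays were left out, and btg4.L did not pass without stage 10.5 experiment 3 (adjusted p = 0.0563) or stage 12 experiment 3 (adjusted p = 0.0705). Of 24 germ plasm and vegetal RNAs 5 fell and none rose, among them birc7.S (-1.90), vegt.L (-1.25) and gdf1.S (-1.23), and 1 to 3 fell without single injected arrays.

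**Figure D3:**
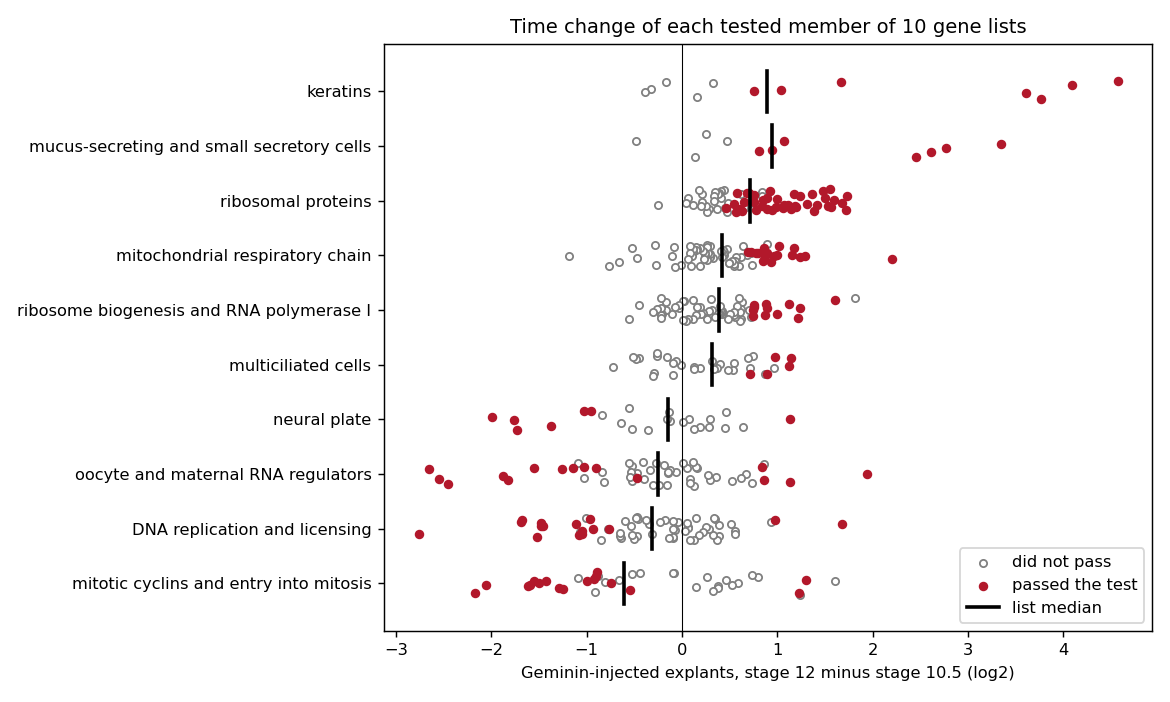
Change with stage, stage 12 minus stage 10.5 on the log2 scale, of each tested member of 10 gene lists in injected explants, with filled points for genes that passed the test, open points for those that did not and a bar at the list median. Medians run from 0.94 for secretory genes and 0.90 for keratins to -0.60 for mitotic genes, and each list holds genes on both sides of 0.

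The mitotic list held the highest share of falls among the 35 lists, 15 of 38 tested, with 2 rises and a median of -0.60 (-0.59 on the deposited scale and -0.25 with median centring). The B-type cyclin ccnb2.L had 10.59, 10.98 and 10.46 at stage 12 and 12.05, 12.19 and 12.28 at stage 10.5, and fell by 1.5 ± 0.15 (adjusted p = 0.000216). Its copy ccnb2.S fell by 1.29, ccnb1.S by 2.17 and ccnb1.2.L by 0.92. The A-type cyclins of the early embryo, ccna1.L and ccna1.S, fell by 1.43 and 1.60, and the anaphase activators cdc20.L and cdc20.S by 1.62 and 0.75. cdc20.L had 9.62, 9.93 and 9.42 at stage 12, against 11.0, 11.30 and 11.52 at stage 10.5. The cyclin-dependent kinase itself went the other way: cdk1.S rose by 1.23 and its small partner cks1b.S by 1.3, while cdk1.L (0.73), aurka.L (0.38) and plk1.S (-0.08) did not pass. The number of falls was 3 on the deposited scale and 8 with median centring, and it was 8 to 12 without single injected arrays, the lowest without stage 12 experiment 3. Among 67 genes of the spindle, kinetochore and chromosome segregation 6 fell and 2 rose, with a median of -0.06 that was 0.08 with median centring, so falls here were near the share over all probe sets. The largest of them were nusap1.S and racgap1.L, both -1.66, and spc24.L (-1.55).

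Of 65 genes of DNA replication and licensing 14 fell and 2 rose, with a median of -0.32. Several falls were in licensing. Besides both cdc6 copies, cdt1.L, which encodes the licensing factor Cdt1, fell by 1.46 ± 0.24. It had 9.67, 10.02 and 9.63 at stage 12 and 11.23, 11.02 and 11.45 at stage 10.5. Another cdt1.L probe set gave -0.26 and did not pass. The origin recognition genes orc1.L (-0.97), orc2.S (-0.77) and orc4.L (-1.11), the initiation kinase cdc7.L (-1.48), the helicase partner cdc45.L (-1.52) and the single-strand binding genes rpa1.L (-1.05), rpa2.L (-1.08) and rpa3.S (-1.68) also fell. The replication gene mcm10.L, which does not encode a subunit of the MCM helicase, fell by 0.93. Of the helicase subunits given here mcm3.L fell by 1.05, while mcm2.L (-0.60), mcm4.L (-0.35), mcm5.L (-0.38), mcm6.L (0.25) and mcm7.L (0.03) did not pass. The sliding clamp pcna.L (-0.04) and the polymerase subunit pola2.L (-0.07) did not pass either. topbp1.L rose by 1.68 and pole3.L by 0.98. The count of falls was 7 without stage 12 experiment 2 or 3, 8 without stage 10.5 experiment 2, 9 without stage 10.5 experiment 3, 10 and 11 without experiment 1 of stage 10.5 or 12, and 4 on the deposited scale. Of 31 G1 cyclins, CDK inhibitors and growth drivers 6 fell and 1 rose: ccne1.S (-0.90), e2f1.L (-1.39), mycl.S (-1.43), myc.S (-1.61), ccng2.L (-1.3) and btg1.S (-0.60) fell, and the pocket protein gene rbl1.L rose by 1.04. The list median was -0.14 here and 0.07 with median centring. For myc.S other probe sets gave 0.14 and 0.62 and did not pass, so the fall rests on 1 of 3 probe sets.

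Of 24 tested neural plate genes 6 fell and 1 rose at the later stage on the brightest probe set of each gene, with a median of -0.15. A dimmer probe set of zic1.S also fell, by 2.39 (limma adjusted p = 0.0134), against a change of -0.36 on the one counted, which did not pass. The progenitor factor sox3.S had 9.48, 9.28 and 8.64 at stage 12, against 10.72, 11.04 and 10.92 at stage 10.5, and fell by 1.76 ± 0.24 (adjusted p = 0.000766). sox11.S fell by 1.99 ± 0.35, with 8.16, 8.29 and 7.93 against 10.26, 9.85 and 10.26, and zic2.L, a zinc-finger factor of the neural plate, by 1.73. lhx5.S fell by 1.38, znf703.S by 1.03 and sox2.L by 0.96. The stem cell RNA-binding gene msi1.S was the gene that rose, by 1.13, while its copy msi1.L (-0.52) did not pass. Between 3 and 6 genes of the list fell without single injected arrays, and 0 rose without stage 12 experiment 3. Genes of differentiated or regional neural tissue such as pax6.L (0.46), six3.L (0.29) and tubb2b.S (0.28) did not pass and lay at 5.29 to 5.78 on the mean of either stage, near the filter level. Of the genes of uncommitted ectoderm and pluripotency 5 of 22 fell and 1 rose, sox3.S, sox2.L and foxi1.L again among the falls. The POU factor pou5f3.1.L rose by 1.16 ± 0.19, with 11.11, 11.38 and 11.38 at stage 12 and 10.31, 9.62 and 10.46 at stage 10.5, while pou5f3.2.L fell by 0.81.

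Early signalling genes gave both directions. Among 36 Wnt genes 6 fell and 4 rose. The falls were genes that respond to Wnt signals: the feedback inhibitors axin2.L (-1.37) and axin2.S (-1.75), dact1.L (-1.72) and dact1.S (-1.23), myc.S and sp5l.S. That of myc.S rests on 1 of 3 probe sets. Other genes of the Wnt response did not pass, among them ccnd1.S (0.78), ccnd1.L (0.56) and myc.L (-0.39). The largest fall was in sp5l.S, with 5.05, 4.56 and 4.38 at stage 12, against 6.2, 7.17 and 8.52 at stage 10.5, and it fell by 2.63 ± 0.50 (adjusted p = 0.0045). Its other probe sets fell by 2.28 and 1.88, and the first of them, the brightest, stands for the gene in the list. The rises were receptors, fzd8.S (1.73), fzd3.L (1.05), fzd2.S (1.03) and lrp6.L (1.06). A second fzd8.S probe set gave 0.59 and did not pass (adjusted p = 0.134), and its change was lower than in uninjected explants by a called difference of -1.67. The list median was -0.14, and 0.15 with median centring. Of 14 FGF genes 2 fell and none rose, the phosphatase dusp1.S (-1.43) and the receptor fgfr4.L (-0.84, with -0.54 on another probe set that did not pass), and of 16 organizer and Nodal genes 3 fell and 1 rose. The Nodal co-receptor tdgf1.3.L had 8.88, 9.57 and 9.20 at stage 12, against 11.39, 11.16 and 11.84 at stage 10.5, and fell by 2.25 ± 0.39. smad2.L and gdf1.S each fell by 1.23, and gsc.L rose by 1.06 with a late array at 5.47 beside others at 6.73 and 6.70. The organizer and Nodal list had 1 rise without stage 12 experiment 1 and 0 without any other single injected array. In retinoic acid signalling the synthesising enzyme aldh1a2.L fell by 1.86 ± 0.26 and the receptor rara.L rose by 1.37 ± 0.23, the 2 calls among 15 tested. These were 13.3% of that list, and the 2 FGF calls were 14.3% of theirs, against 16.3% over all probe sets.

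Of 26 tested genes in the list for neural border, placode and crest 8 rose and 3 fell. The rises were both copies of dlx3 and msx1, dlx5.L and dlx6.S, all also BMP response genes, with fzd3.L and kctd15.L (1.05), and the falls were ets1.L (-1.26), ets1.S (-1.43) and myc.S. Among 32 genes of Notch signalling and neuronal differentiation 3 rose and 3 fell, near the shares over all probe sets of 7.82% higher and 8.49% lower. mab21l3.S rose by 2.35, the Notch ligand dll1.L by 1.34 and gadd45a.S by 1.66, while stmn1.S, stmn1.L and the Notch target hes7.1.L fell by 1.85, 0.87 and 1.60. Of 48 chromatin regulators 7 fell and 2 rose, with a median of -0.01 that was 0.15 with median centring. The maintenance DNA methyltransferase fell in both copies, dnmt1.S by 1.81 and dnmt1.L by 1.25, as did the Polycomb genes eed.S (-0.98) and bmi1.S (-0.77), hdac2.S (-1.14), smarca5.S (-0.80) and cbx3.L (-0.58). The acetyltransferase kat7.L rose by 2.14 and the heterochromatin gene cbx1.S by 1.77. Another kat7.L probe set rose by 1.18 (limma adjusted p = 0.0492). Only 1 gene lies between kat7.L and dlx3.L in the gene order of the RefSeq annotation Xenopus_laevis_v10.1, and both rose. In the DNA damage and stress list 5 rose and 3 fell of 28, the checkpoint genes chek1.S (-1.42) and rad17.L (-0.87) among the falls, and in the absence of single arrays 0 to 2 rose. Of 98 solute carriers 14 rose and 9 fell, from slc22a4.L (2.14) to slc48a1.S (-2.03). The falls were near the share over all probe sets. Between 4 and 10 solute carriers rose without single injected arrays, and on the deposited scale 2 rose and 4 fell. The Hox and cdx list also holds pbx and meis genes. Of its 8 tested genes pbx2.L rose (1.2), and hoxd9 (-0.82) and meis1.S (-0.87) fell. None of the tested Hox genes rose, and no cdx gene was tested. Of 16 mesoderm and muscle genes none rose and 2 fell on the brightest probe set of each gene. The share called was 12.5%, against 16.3% over all probe sets. A dimmer probe set of the troponin gene tnni2.S rose by 1.67 (adjusted p = 0.00143), against 0.28 on the one counted. On the brightest probe sets limma called 0 of 10 endoderm genes and 0 of 21 genes of the extracellular matrix and secreted proteases, while a dimmer probe set of the endoderm factor sox17b.1.S fell by 1.36 (adjusted p = 0.0116). Of the brightest probe sets those with the smallest p gave 0.76 (a2m.S, adjusted p = 0.0594) and -0.68 (timp3.L, adjusted p = 0.055).

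The same stages of uninjected explants, read in the same fit, gave 3683 changed probe sets (31.7%), 1762 higher and 1921 lower. Of the 1895 changes of injected explants 1494 were also called in uninjected explants in the same direction, 729 higher and 765 lower, which is 78.8% of the injected calls and 40.6% of the uninjected ones. In 6 cases the called directions were opposite. Without the doubted uninjected library 1671 and 3219 were called and 1222 shared, which is 73.1% of the injected calls, with 3 opposite. Over all probe sets the time changes correlated at r = 0.81 (0.78 without that library), a description only, since injected and uninjected arrays of a stage come from the same experiments and 1 fit. Over the injected rises the median change was 1.07 in injected and 1.12 in uninjected explants, and over the injected falls -1.11 and -1.15. The reverse set was unequal, since over the uninjected rises the median was 0.69 in injected and 1.12 in uninjected explants, and over the uninjected falls -0.71 and -1.13. Each of these medians is taken over genes chosen in the group named, where values are favoured, so none is a test. Ribosomal protein genes had medians of 0.71 in injected and 0.74 in uninjected explants, and multiciliated genes 0.31 and 0.83. Without the doubted library the uninjected medians were 1.25 and -1.24 over the injected rises and falls, 1.28 and -1.27 over the uninjected ones, 0.79 for ribosomal proteins and 0.96 for multiciliated genes.

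**Figure D4:**
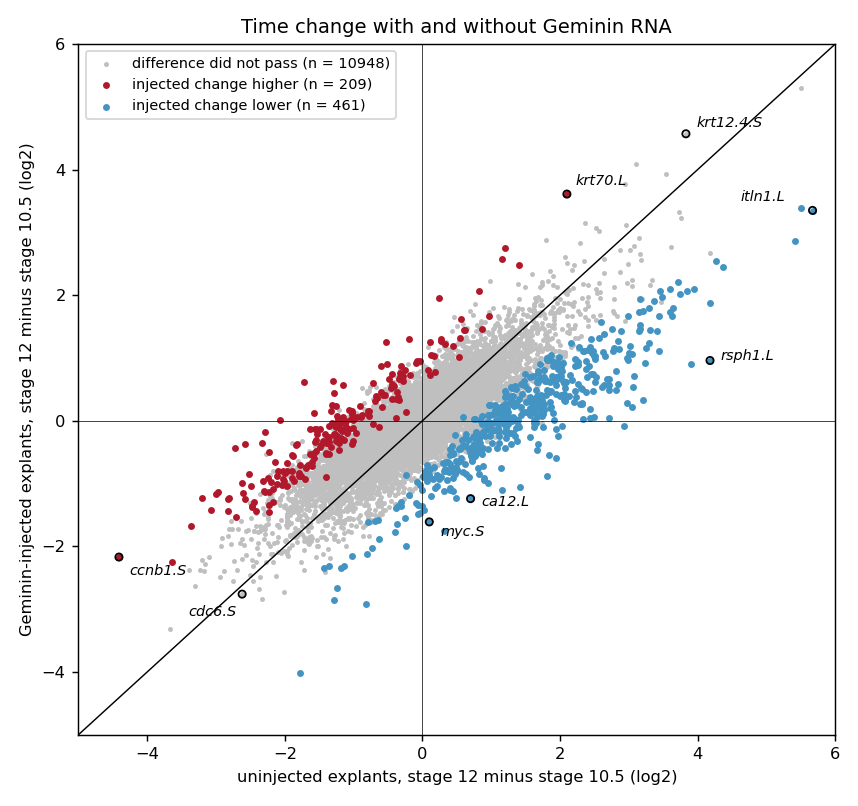
Change with stage (stage 12 minus stage 10.5, log2) in injected explants on the vertical axis against that in uninjected explants on the horizontal axis for 11618 probe sets, with the line of equal change. Coloured points passed the test of the difference (209 higher and 461 lower in injected explants), and krt12.4.S and cdc6.S lie near the line while rsph1.L and ca12.L lie well below it.

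Whether a time change differed between injected and uninjected explants was tested as an interaction with the experiment of each stage as a block, the pairing that the design text gives. It called 670 probe sets (5.77%), 209 higher (1.8%) and 461 lower (3.97%) in injected explants, with 135 (1.16%) and 372 (3.2%) of them differing at least 2-fold. The count rests on the block. Without it 34 passed, 4 higher and 30 lower. With experiment 3 of stage 12 left out, which holds the uninjected library doubted above, 1033 passed, 445 higher and 588 lower. Leaving out another pair gave 183 (stage 10.5 experiment 2), 215 (stage 10.5 experiment 3), 248 (stage 12 experiment 2), 310 (stage 10.5 experiment 1) and 570 (stage 12 experiment 1). Of the 1895 injected calls 208 differed by this test. Among them 82 rose with a lower change than in uninjected explants, 33 fell with a higher one, 26 rose with a higher one and 67 fell with a lower one. Without the doubted library these counts were 94, 84, 20 and 60 of 258, so falls that were smaller than in uninjected explants changed most in number. Of the differences called for single genes below on the probe set named first, those of krt70.L and krt7.L did not pass without that library.

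Of 11 mucus and secretory genes 4 had a lower change in injected than in uninjected explants and 1 a higher one, 0 without the block. Without the doubted uninjected library 3 had a lower change and 1 a higher one. For itln1.L the uninjected levels were 11.91, 10.72 and 10.55 at stage 12 and 5.24, 5.63 and 5.30 at stage 10.5, so the late levels above (8.94, 7.68 and 8.98) stayed below all uninjected ones. The difference in change was -2.33 ± 0.38 (SE, limma adjusted p = 0.00619, 0.174 without the block). It was -2.11 for otogl2.L and -1.92 for both agr2 copies. Among multiciliated genes 12 of 33 had a lower change in injected explants and none a higher one, 3 without the block and 15 without the doubted uninjected library. The radial-spoke gene rsph1.L had 6.03, 4.54 and 5.80 at stage 12 and 4.09, 4.84 and 4.58 at stage 10.5 in injected explants, which overlap. Uninjected explants had 8.94, 8.73 and 8.07 at stage 12 and 4.22, 4.80 and 4.18 at stage 10.5. Its change of 0.96 in injected explants did not pass (adjusted p = 0.109), and its difference was -3.23 ± 0.40. The ionocyte transcription factor ubp1.L stayed at 4.83, 5.24 and 5.47 at stage 12 and 4.73, 5.19 and 4.94 at stage 10.5 in injected explants, against 7.57, 8.58 and 8.41 and 4.86, 5.15 and 5.4 in uninjected ones. The receptor kit.S likewise read 5.54, 5.19 and 5.99 at stage 12 in injected explants and 8.07, 8.40 and 8.27 in uninjected ones, with a difference of -2.52. The other kit.S probe set gave a difference of -0.45 that did not pass (adjusted p = 0.322), and a change of 0.57 in uninjected explants. The ligand gene kitlg.L had a difference of -0.23 (adjusted p = 0.734) and rose in both kinds of explant.

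**Figure D5:**
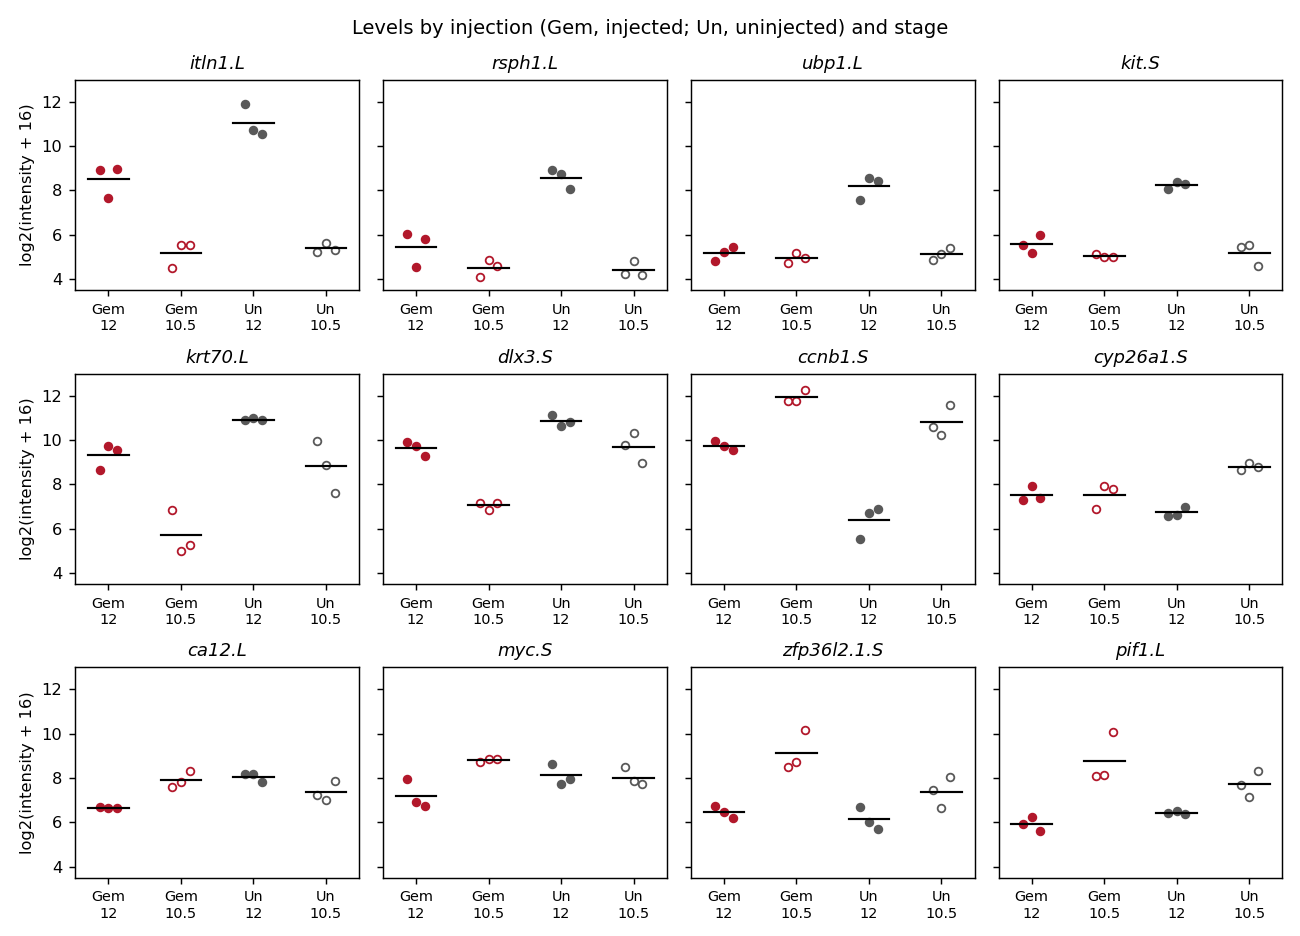
Normalised level, log2(intensity + 16), of 12 genes on each of the 12 arrays, with injected (Gem) groups in red, uninjected (Un) groups in grey, filled points for stage 12, open points for stage 10.5 and a bar at each mean. In the top row the late rise of uninjected explants is small or missing in injected ones, and in the bottom row injected explants fall to levels near or below those of uninjected explants.

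A keratin and dlx3.S rose by more in injected explants, while the difference of the copy dlx3.L was 1.08 and did not pass (limma adjusted p = 0.177). Among 43 BMP genes 1 had a higher change in injected explants and 6 a lower one, msx1.S (-1.01) among the latter. These counts were 0 without the block, and 1 and 7 without the doubted library. krt70.L rose by 3.61 in injected explants and by 2.1 in uninjected ones, whose levels were 10.9, 10.97 and 10.89 at stage 12 and 9.97, 8.87 and 7.61 at stage 10.5. Its difference was 1.51 ± 0.37 (adjusted p = 0.0351) and 1.38 without the doubted library (adjusted p = 0.0632), and that of dlx3.S was 1.42 ± 0.34 (adjusted p = 0.0343). In both genes all injected stage 10.5 arrays lay below all uninjected ones, and at stage 12 all injected arrays still lay below the uninjected arrays. Of the 12 genes of the keratin list 2 had a higher and 1 a lower change, and 0 without the doubted uninjected library or without the block. Mitotic genes had a higher change in injected explants for 11 of 38 and a lower one for none, 0 without the block and 11 without the doubted library. For ccnb1.S the injected levels were 9.96, 9.75 and 9.53 at stage 12 and 11.75, 11.75 and 12.26 at stage 10.5, against 5.55, 6.72 and 6.89 and 10.58, 10.24 and 11.56 in uninjected explants. It fell by 2.17 in injected and by 4.41 in uninjected explants. In 5 of 24 neural plate genes, 1 without the block and 11 without the doubted library, the change was higher. There cyp26a1.S, which degrades retinoic acid, had 7.31, 7.92 and 7.36 at stage 12 and 6.89, 7.90 and 7.78 at stage 10.5 in injected explants, a change of 0.01, while it fell by 2.07 in uninjected ones.

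Some genes fell in injected explants alone or fell further there. ca12.L is described above. In uninjected explants it had 8.18, 8.19 and 7.80 at stage 12 and 7.23, 6.99 and 7.85 at stage 10.5, and the difference was -1.94 ± 0.23 (adjusted p = 0.0014, 0.0561 without the block). The cyclin ccng2.L had 6.13, 5.88 and 6.08 at stage 12 and 7.78, 7.11 and 7.12 at stage 10.5 in injected explants. It changed by -0.09 in uninjected ones, a difference of -1.21 ± 0.22. Its means were 6.03 in injected and 6.31 in uninjected explants at stage 12, and 7.34 and 6.4 at stage 10.5, so they lay further apart early. pif1.L and zfp36l2.1.S fell further in injected explants by 1.56 and 1.42. The pif1.L means were 5.93 in injected and 6.43 in uninjected explants at stage 12, and 8.78 and 7.72 at stage 10.5. For zfp36l2.1.S they were 6.47 and 6.15 at stage 12, and 9.13 and 7.38 at stage 10.5, so in both genes the groups lay further apart early. The heme transporter slc48a1.S fell by 2.03 in injected explants, with 5.44, 5.89 and 5.84 at stage 12 against 7.84, 7.25 and 8.16 at stage 10.5. Its difference was -1.3. Its means were 5.72 in injected and 5.83 in uninjected explants at stage 12, and 7.75 and 6.56 at stage 10.5. The copy slc48a1.L fell by 1.62 in injected and 1.63 in uninjected explants, a difference of 0.01 that did not pass. The growth gene myc.S had a difference of -1.71 on the probe set that fell, and differences of -1.11 and -1.24 on the others. Without the block limma's adjusted p of the difference was 0.194 for ccng2.L, 0.517 for pif1.L and 0.563 for zfp36l2.1.S. It was 0.214 for slc48a1.S and 0.194 for the myc.S probe set that fell.

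Where both copies of a gene were called, they mostly changed alike within injected explants. Among 791 pairs of .L and .S copies with both tested, at least 1 copy was called in 221 and both in 66, of which 65 went in the same direction. The changes of the copies correlated at 0.63 over these pairs, which are not independent because probes can cross-hybridise. Of the genes with the largest changes, krt12.4.S and krt12.5.S lie next to each other in the gene order of the annotation. The gene itln1.L (3.35) lies next to rpp30.L, which fell by 1.15.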

How the data were processed

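Total RNA of 12 explant pools was read on 1-colour Affymetrix Xenopus laevis arrays. The deposited values are intensities on a linear scale, 1 per probe set and array, as read from the files and the labels, and the labels and files do not state how the authors summarised, background-corrected and scaled them. Groups followed the labels for stage and manipulation. The description of 1 uninjected stage 12 array names stage 10.5, and the array was placed by its title. From the deposited intensities, log2(intensity + 16) was computed and quantile-normalised over 12 arrays, and 3873 probe sets, the dimmest 25% by mean over the arrays, were not tested. A limma 3.58.1 fit in R 4.3.3 (group means, intensity trend, Benjamini-Hochberg adjustment over 11618 probe sets, threshold 0.05) gave the time changes. The difference between injected and uninjected time changes had the experiment within a stage as a block, because the design text pairs those samples. Deviations of such pairs correlated at 0.765 to 0.797 at stage 10.5 and 0.424 to 0.693 at stage 12. The number of arrays limits the precision.

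Gene names came from the platform annotation, updated by gene ID through RefSeq Xenopus_laevis_v10.1. Of 15491 probe sets, 9304 had 1 symbol, 195 several and 5992 none. Each list used the brightest probe set of a gene. The genes and lists described were chosen with earlier results of these data known. Named by rule were gmnn, the 12 largest rises and falls that passed without overlap, up to 4 members of each list by smallest p, and the 8 largest differences in each direction. On simulated data the time change recovered 39 of 100 probe sets changed 2-fold and 84 of 100 changed 4-fold, with 5 false calls among 11418, and the difference recovered 27 of 100, 90 of 100 and 6 false calls. The simulated data held a smaller share of changed probe sets than was called here. The adjustment depends on that share, so these rates do not carry over directly. Other scalings, pseudocounts, filters, blocks and left-out arrays were tried.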

Additional observations from a re-analysis of the deposited data

Results flagged for a closer look

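For 40 genes named by rule, the change with stage differed between injected and uninjected explants by limma's interaction test with the experiment as a block. Of these, 17 had a higher and 23 a lower change in injected explants. Without the block 7 of them passed: prdm1.S, zic1.S, ackr3.L, rsph1.L, tbc1d24.2.L, ubp1.L and kit.S. Without the array labelled uninjected, stage 12, experiment 3, 38 passed and 0 had the opposite sign, and krt70.L (1.38, adjusted p = 0.0632) and krt7.L (0.70, adjusted p = 0.0525) did not pass. Values below are the injected minus the uninjected time change on the log2 scale. Genes described above but not named by rule are not among the 40, and some of them also had a called difference. Examples are xbp1.L (1.06), ets1.S (-1.45), foxn4.S (-1.7) and myc.L (-1.15).

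Higher in injected explants were crx.S (2.34), ccnb1.S (2.23), prdm1.S (2.2), cyp26a1.S (2.08), zic1.S (1.97), crx.L (1.94), ackr3.L (1.84), tspan1.S (1.83), vegt.L (1.57), krt70.L (1.51), dlx3.S (1.42), tdgf1.3.L (1.39), fzd2.S (0.86), ccnb1.2.L (0.79), cdt1.L (0.77), krt7.L (0.7) and rarg.S (0.66).

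Lower were rsph1.L (-3.23), dlx2.L (-3.01), tbc1d24.2.L (-3.01), ubp1.L (-2.83), tnni2.S (-2.7), tuba1cl.3.L (-2.55), sox7.L (-2.54), kit.S (-2.52), itln1.L (-2.33), otogl2.L (-2.11), ca12.L (-1.94), agr2.S (-1.92), agr2.L (-1.92), myc.S (-1.71), pif1.L (-1.56), rsph9.L (-1.53), zfp36l2.1.S (-1.42), cfap52.L (-1.36), slc48a1.S (-1.3), ccng2.L (-1.21), hand2.S (-1.18), cfap20.L (-1.06) and msx1.S (-1.01). For tuba1cl.3.L the other probe sets gave differences of 0.73 and 0.19, of the opposite sign, and did not pass. Other probe sets that did not pass gave 0.78 for zic1.S (adjusted p = 0.145), -0.45 for kit.S (adjusted p = 0.322), 1.19 for prdm1.S (adjusted p = 0.0767), -0.61 for otogl2.L (adjusted p = 0.135), -0.01 for krt7.L (adjusted p = 0.982) and 0.58 for cdt1.L (adjusted p = 0.0587). A further prdm1.S probe set (1.74), a further otogl2.L one (-2.31) and the other probe sets of myc.S, tnni2.S, rsph9.L and cfap20.L passed with the same sign.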

How the results depend on the processing

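The count of probe sets changed with stage in injected explants was 527 on the deposited scale, 783 with the stage 12 arrays of experiments 2 and 3 averaged, 939 to 1643 when 1 injected array was left out, and 1671 without the array labelled uninjected, stage 12, experiment 3. No call shared with the values reported changed direction in any of the 19 alternatives. The replicate number as a block across stages gave 1469, of which 1299 were shared. Same-numbered injected arrays of the stages correlated in their deviations at 0.097, 0.029 and 0.201, and differently numbered ones at -0.21 to 0.114. The numbers were not taken to pair the stages, since no label states that they do. In uninjected explants the count was 1380 on the deposited scale and 2811 to 3219 without single arrays. The difference between injected and uninjected explants gave 379 with the lowest 50% of signal left out, 34 with no replicate block, 1033 without that array, and 183 to 1033 without single pairs. Members of the lists passing numbered 85 on the deposited scale, 129 with the arrays averaged 149 to 239 without single injected arrays and 254 without that uninjected array. Counting a gene where any of its probe sets passed, an alternative chosen after seeing the data, gave 302 list members, 186 higher and 116 lower, against 170 and 109. The cause of these shifts was not tested. With median centring the changes of h3-3b.L (0.57 against -0.19) and snrpa1.S (0.13 against -0.51) had the opposite sign. Of the 24 largest rises and falls 20 passed in each of the 19 alternatives that tested them. The exceptions were tuba1cl.3.L, tubg1.L, btg4.L and tbp.L. Dim probe sets near the 5th percentile limit the size of large changes.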
